A study of Mus musculus and Oryctolagus cuniculus and Sus scrofa with 20 samples.

Results

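The tags described here are 33372 distinct small RNA sequences of 29 to 32 nt that start with T. They are candidate pachytene piRNAs of the size bound by MIWI, and binding to that protein was not measured. Besides length and first base, they were chosen by their level in 2 mouse libraries, in reads per 1000000 reads of a library (RPM). Each had at least 2 RPM in round spermatids and under 0.2 RPM in zygotene spermatocytes. They are called members below, out of 2570481 distinct sequences in the round spermatid library, of which 49870 reached 2 RPM at any length and with any first base. The 49870 serve as the background throughout. They include the members and have no zygotene limit. The background held 508867 RPM in zygotene spermatocytes, where the members held 175.

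The study sequenced small RNA from 20 sources, 1 library each, so no group has a replicate. The mouse stages were wild-type C57BL/6: pre-leptotene and leptotene spermatocytes of postnatal day 9, zygotene spermatocytes of day 13, pachytene spermatocytes (pachytene cells below) and round spermatids (labelled round sperms) of day 25, and mature sperm without a stated age. Cultured spermatogonial stem cells (SSCs) labelled C57BL/6 wild type were sequenced as well, beside SSC lines of day 15 C57BL/6 x DBA2 F1 mice carrying actin-EGFP: a control, and miR-741 knock-outs made by TALEN and by CRISPR from single picked colonies. The protocols describe SSC culture on MEF feeder cells. The other libraries were whole testes of wild-type rabbits of day 10, 30, 60, 70, 80, 90, 110 and 180, and of an adult pig and an adult rat. How the germ cells were purified is not given in the sources used here. Because every value comes from a single library, intervals cover counting error only, and a difference between libraries has no replicate check.

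piRNAs are small RNAs of germ cells that guide PIWI proteins to complementary transcripts. In mice, pachytene piRNAs appear in large amounts when spermatocytes enter the pachytene stage of meiosis. They are cut from long non-coding precursors and trimmed at the 3′ end, and MILI holds the shorter ones and MIWI the longer ones. Most begin with uridine (T in the sequenced DNA), and transposon-directed pre-pachytene piRNAs of earlier stages come from other precursors.

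The 5′ end with the most member reads shows how these sequences are built. Its tags share the first 24 bases, in lower case below, and differ in the 3′ part, in capitals. They are shown because the choice of members splits them: the same RNA 5′ end gives members and non-members.
31 nt, a member: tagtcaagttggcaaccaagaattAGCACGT
32 nt, a member: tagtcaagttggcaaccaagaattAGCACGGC
31 nt, a second member of that length: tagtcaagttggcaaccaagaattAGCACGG
30 nt, not a member: tagtcaagttggcaaccaagaattAGCACT
30 nt, not a member either: tagtcaagttggcaaccaagaattAGCACG
29 nt, not a member: tagtcaagttggcaaccaagaattAGCAC
27 nt: tagtcaagttggcaaccaagaattAGC
24 nt: tagtcaagttggcaaccaagaatt

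The first of these was the most abundant member, with 41773 reads in round spermatids, 15005 in pachytene cells and 1926 in sperm. The 32 nt member had 28077, 12257 and 2584 reads in the same order, and the second 31 nt member 26792, 10230 and 1459. The 3 tags of 29 and 30 nt were left out by their 6, 10 and 6 zygotene reads, although they had 39443, 51386 and 52686 reads in round spermatids. The 24 nt tag ran the other way, with 11432 reads in round spermatids and 20912 in pachytene cells, as did the 27 nt tag with 5582 and 11953. All tags with these 24 bases together had 294317 reads in round spermatids, 164526 in pachytene cells, 14904 in sperm, 41 in zygotene spermatocytes and 4 in rat testis. This 5′ end had 26 members with 121723 reads.

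Other leading members came from different 5′ ends. In the sequences below, capitals mark the first base, set by the choice, and the fifth and last bases, whose shares are described further on.
Number 2: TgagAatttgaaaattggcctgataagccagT
Number 3: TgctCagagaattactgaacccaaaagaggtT
Number 5: TtggAaacaccctggaagaattcctaagT
Number 7: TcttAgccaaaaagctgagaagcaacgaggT
Number 9: TaacTatggccccgaactgtaagaattaC

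The second had 36003 reads in round spermatids, 7242 in pachytene cells and 616 in sperm. The third had 35973, 3704 and 1174 reads. The fifth had 27138, 5656 and 1280 reads. The seventh had 23045 and 8990 reads in the first pair but 56 in sperm, the lowest sperm count of the 10 most abundant members. The ninth had 21544 and 1097 reads and 317 in sperm. All 10 had lower RPM in pachytene cells than in round spermatids, by 2.22 to 19 times.

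The members held 8363027 of the round spermatid reads, 35.5% of the library (355083 RPM), against 2680 reads in zygotene spermatocytes (175 RPM). Both numbers follow from the choice and are given as a description. The median member had 4.12 RPM in round spermatids (quartiles 2.72 and 8.11), and 2319 members (6.95%) held 50% of the member reads. Members of 29 nt numbered 8225, those of 30 nt 13194, those of 31 nt 8940 and those of 32 nt 3013. They fell on 20474 5′ ends, counted as distinct first 25 nt, of which 13145 had 1 member, 4396 had 2 and 2933 had 3 or more, up to 28. Counted over all members, 3235 (9.69%) began 1 nt upstream of another member, so members are not independent molecules of one another.

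The thresholds cut through a continuous range. At the lower limit in round spermatids, 685 members had 48 reads (2.04 RPM), and another 685 tags of this kind had 47 reads and lay outside. At the zygotene limit, 164 members had 3 reads (0.196 RPM) and 130 tags had 4 reads (0.261) and lay outside. In all, 848 tags met the other conditions but exceeded the zygotene limit. They held 2094569 round spermatid reads, and the most abundant 29 to 32 nt tag of the library, with 242722 reads, was one of them.

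Library depth ran from 597732 reads (the CRISPR line) to 25908109 (sperm), with 22785285 in pachytene cells, 23552284 in round spermatids and 15317355 in zygotene spermatocytes. Marker miRNAs were summed in RPM. The germ cell list (miR-34b, miR-34c, miR-449a) stood at 16.5 in zygotene spermatocytes, 222 in pachytene cells, 533 in round spermatids and 1952 in sperm, with all 5 mature forms detected in the last 3. The Sertoli cell miR-202 stood at 981 in zygotene spermatocytes and at 6.41, 5.73 and 3.78 in the other 3. The epithelial list (miR-200a, miR-200b, miR-200c, miR-141) stood at 2135 in sperm but at 101 in zygotene spermatocytes, 3.73 in pachytene cells and 5.82 in round spermatids. The stem cell list stood at 94.3 in zygotene spermatocytes and at 2.98 to 6.33 in the later 3 libraries. The stromal list (2 of 4 names matched) stood at 814, 6.85, 6.54 and 156, and the blood list (2 of 3 matched) at 0.261, 0.351, 0 and 139. Of these libraries, sperm had the highest epithelial and blood sums, and their source was not tested. The zygotene library, used to choose the members, thus differed from the later ones in somatic markers as well as in stage, and their part in the choice was not tested.

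**Figure D1:**
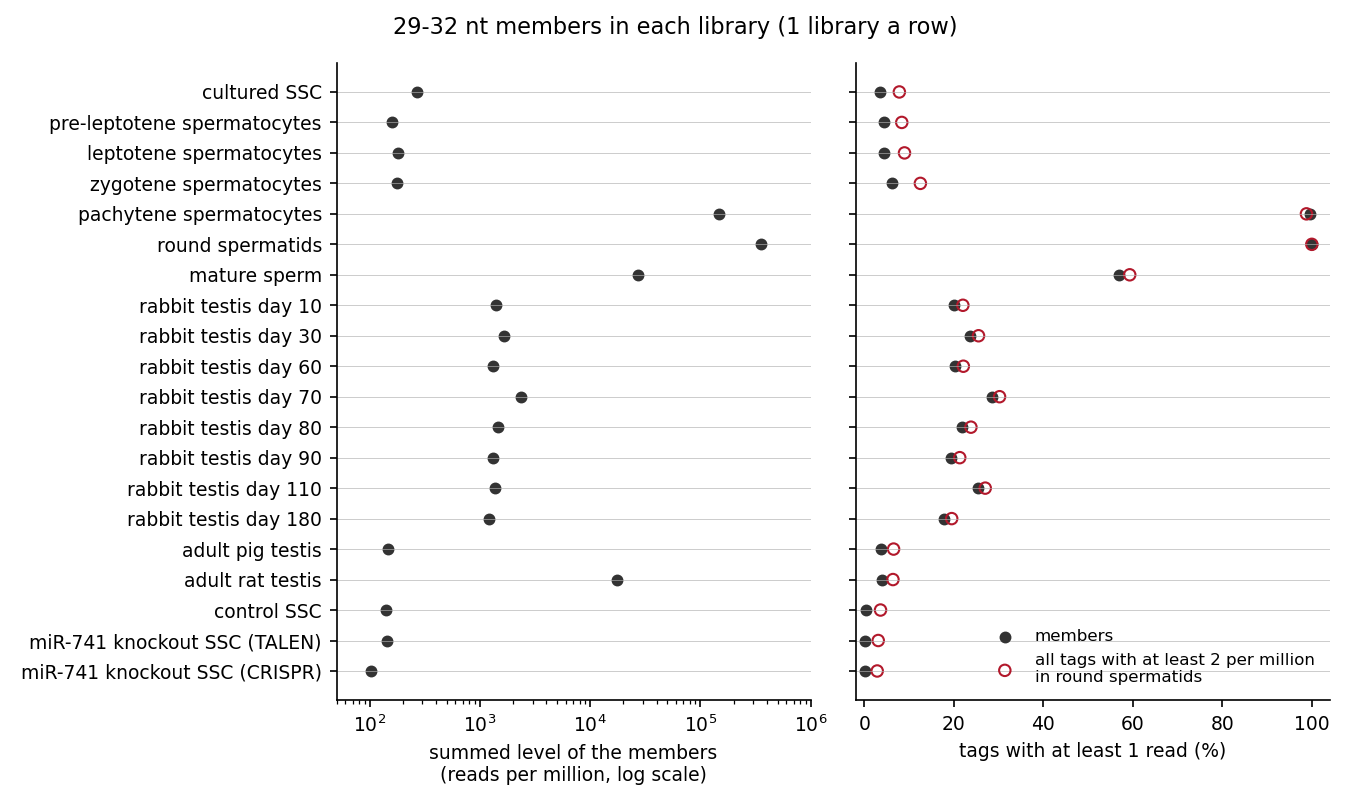
Summed level of the members (left, RPM, log scale) and share of members with at least 1 read (right, filled), with the same share of all tags at 2 RPM or more in round spermatids (open), 1 library a row. Members are high in round spermatids, where they were chosen, and in pachytene cells, then sperm and rat testis.

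In pachytene cells the members were present almost to the last sequence, at a lower level than in round spermatids. Of the 33372 members, 33213 (99.5%) had a read there, against 98.8% of the background. They summed to 3371599 reads, 147973 RPM or 14.8% of the library, 0.417 times the round spermatid level (log2 ratio -1.26, 95% exact conditional binomial interval -1.265 to -1.261, counting error only). By contrast the tags of 26 to 28 nt chosen by the same thresholds, 5510 in number, stood at 40701 RPM in round spermatids and 69277 in pachytene cells. Counting the reads of 25 nt or more that share a member's first 25 nt in place of whole tags raised the log2 ratio to -0.60.

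Tag by tag, 12317 members (36.9%) were at least 4-fold lower in RPM in pachytene cells than in round spermatids, with 0 reads set to 3. The background share was 33.9%, and that of its 16498 tags that are not members 27.7%. At least 4-fold higher were 216 members (0.647%), against 3.65% of the background and 9.73% of its tags that are not members. The median log2 ratio was -1.57 for members and -1.39 for the background. Selecting all these tags on round spermatids favours low values in both. By length, the median was -1.38 for 29 nt members, -1.62 for 30 nt, -1.66 for 31 nt and -1.62 for 32 nt. Across members the Spearman correlation of the 2 libraries was 0.60, a description over 33372 tags that share precursors and 5′ ends.

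Members at the extremes of this ratio, among those with at least 100 reads in both libraries together, are shown because they mark how far single sequences departed from the set.
Number 2 from the top: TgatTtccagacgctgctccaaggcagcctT
Number 3 from the top: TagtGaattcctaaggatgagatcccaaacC
Lowest with a pachytene read: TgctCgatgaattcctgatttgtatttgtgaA
Number 3 from the bottom: TgagCactttgggttcctttggagccattT

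The second highest had 1147 reads in pachytene cells and 49 in round spermatids, a log2 ratio of 4.60 (4.18 to 5.04). The member at number 3 had 4256 and 203 reads, with 28 in sperm, and a log2 ratio of 4.44 (4.23 to 4.65). The highest of all, not printed, had 1375 and 53 reads. At the other end, the lowest with a pachytene read had 1 read in pachytene cells, 491 in round spermatids and 48 in sperm, a log2 ratio of -8.89 with a counting interval of -14.20 to -6.41. Number 3 from the bottom had 1, 261 and 19 reads. The second highest was rare in round spermatids and close to the threshold, and both low members were seen in sperm as well. This order sets 0 reads to 3, which puts the 25 ranked members without a pachytene read at an upper limit only: the one with most round spermatid reads had 738, a log2 ratio of at most -7.89, and may lie below those shown.

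**Figure D2:**
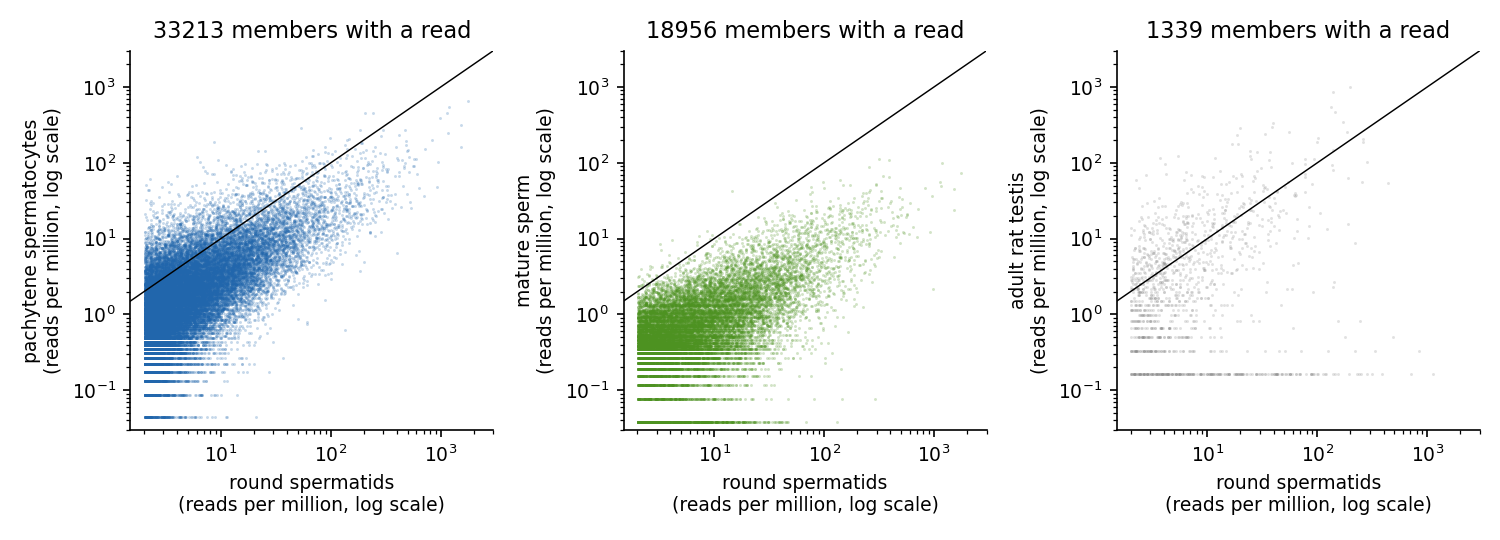
Level of each member in pachytene cells, sperm and rat testis against round spermatids (RPM, both axes log scale, 1 point a member with at least 1 read in the library on the vertical axis; members without a read are not drawn; the line marks equal levels). The pachytene cloud lies below and across the line, nearly all of the sperm cloud lies below it, and the rat points spread on both sides.

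In sperm the members were much scarcer. A read was found for 18956 members (56.8%), against 59.3% of the background, and 14416 had none. Their sum was 698853 reads, 26974 RPM or 2.70% of the library, 0.0760 times the round spermatid level (log2 ratio -3.72, interval -3.722 to -3.715). A 4-fold or larger deficit against round spermatids was found for 30581 members (91.6%), with a background of 87.8% (79.9% of its tags that are not members). None of the members was 4-fold higher, against 1.18% of the background (3.56% of its tags that are not members). Against pachytene cells, 20786 members (62.3%) were at least 4-fold lower in sperm, near the background of 63.0%. At least 4-fold higher were 377 (1.13%, background 2.95%). Scaled to reads of 25 to 32 nt, of which sperm has 41.0% and round spermatids 83.6%, the log2 ratio to round spermatids was -2.69.

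The 5 members with most reads in sperm were numbers 57, 42, 4, 86 and 1 by round spermatid reads. The 3 of them not yet shown are printed here.
Most reads in sperm: TaaaAtgagaacacgagaaaactgctaagT
Number 2 in sperm: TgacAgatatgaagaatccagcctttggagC
Number 4 in sperm: TctgCgtggagaaccaaatgcgtgcatgtT

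The first, number 57 by round spermatid reads, had 2935 reads in sperm, 7429 in round spermatids and 1881 in pachytene cells. The second, number 42, had 2788, 9077 and 644 reads. The fourth, number 86, had 2247, 6050 and 1552 reads and lies in an exon of Gm49794, an annotated lincRNA. All 3 were above their pachytene level in RPM in sperm, and below their round spermatid level. Numbers 3 and 5 of the sperm list, members of the leading 5′ end shown above, ran the other way, with 99.7 and 74.3 RPM in sperm against 538 and 659 in pachytene cells. The Spearman correlation of sperm and round spermatid reads was 0.48 across members.

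Shorter tags with the same 5′ end accompanied nearly every member. In round spermatids 32911 members (98.6%) had at least 1 read of a tag of 17 nt or more that is an exact shorter form of it. The share was 97.9% in pachytene cells and 62.4% in sperm. Such a shorter form can itself be a member, and 20227 members lay on 5′ ends with 2 or more members. Forms of 26 to 28 nt were found for 91.3% of members in round spermatids, 93.0% in pachytene cells and 37.6% in sperm. Forms of 17 to 24 nt were found for 75.7%, 76.6% and 31.4%. None of these shares was computed for the background, so they do not set members apart from other abundant tags.

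The length of these reads differed between stages. Among reads of 25 nt or more with a member's first 25 nt, pachytene cells had 32.7% at 26 to 28 nt and 56.1% at 29 to 32 nt, a ratio of 0.583. In round spermatids the shares were 10.5% and 85.7% (ratio 0.122), in sperm 12.2% and 68.8% (0.177) and in rat testis 14.9% and 79.7% (0.187). The pachytene profile had a first rise at 26 and 27 nt, with 43030 and 44812 RPM, a dip to 34004 at 28 nt and a second rise to 77217 at 30 nt. The round spermatid profile climbed from 12070 at 26 nt to 197865 at 30 nt. Since members were selected as 29 to 32 nt tags of round spermatids, the round spermatid shape follows in part from the choice.

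The same contrast appeared in reads that no rule had selected. Over all reads that start with T, the ratio of 26 to 28 nt to 29 to 32 nt was 0.822 in pachytene cells, 0.166 in round spermatids, 0.298 in sperm and 0.239 in rat testis. In zygotene spermatocytes it was 2.07, in leptotene spermatocytes 1.68 and in pre-leptotene spermatocytes 1.30. The most frequent length from 25 to 33 nt was 27 nt in zygotene and leptotene spermatocytes, 28 nt in pre-leptotene spermatocytes, and 30 nt in pachytene cells, round spermatids, sperm and rat. The 26 to 28 nt reads fell from 275733 RPM in pachytene cells to 104100 in round spermatids, while the 29 to 32 nt reads went from 335623 to 625623.

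**Figure D3:**
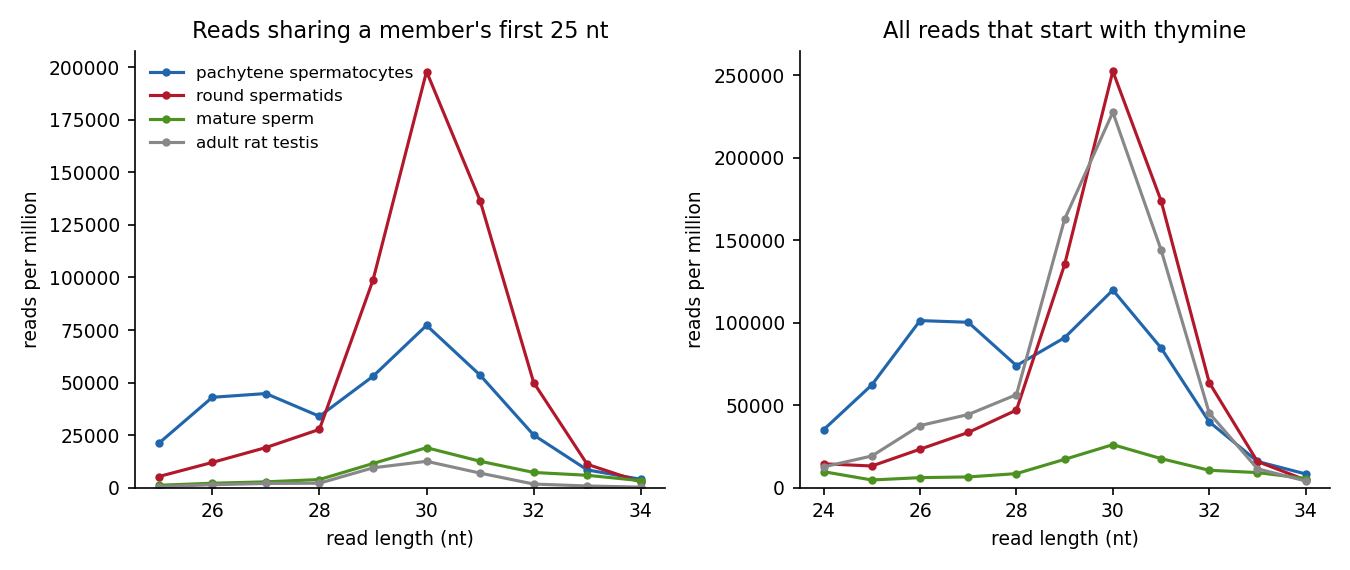
RPM by read length, for reads sharing a member's first 25 nt (left) and for all reads that start with thymine (right), in 4 libraries of 1 sample each. Pachytene spermatocytes show a rise at 26 and 27 nt beside the one at 30 nt, and round spermatids a single rise at 30 nt.

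Some members were minor forms beside far more abundant shorter tags. The sequences below are shown with the most abundant shorter form in capitals and the bases that only the member has in lower case.
First by shorter reads, 32 nt: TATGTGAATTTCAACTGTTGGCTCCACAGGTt
Number 3, 32 nt: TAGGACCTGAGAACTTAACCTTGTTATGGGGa
Number 4, 32 nt: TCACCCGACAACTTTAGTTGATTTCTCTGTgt
Number 7, 30 nt: TGTCAGTGAACCTGAAGCAGtggaaggggt

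The first had 68 reads in round spermatids, beside 242722 for its 31 nt form, which is the tag excluded by the zygotene limit and whose first 25 nt lie in an exon of Gm21269. That form had 22041 reads in pachytene cells and 23371 in sperm. The third had 497 reads beside 65436 of its 31 nt form, and number 4 had 476 beside 60975 of its 30 nt form. The seventh, named after its values were seen, differed in kind: its main shorter form is 20 nt long, with 36525 reads in round spermatids, 46635 in pachytene cells, 1553 in sperm and 7 in zygotene spermatocytes, against 251, 123 and 18 reads of the 30 nt member in the first 3. Over all members, 20 nt forms summed to 107950 reads in round spermatids and 100331 in pachytene cells.

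Base make-up was uneven at a few positions. Position 5 from the 5′ end was A in 46.1% of members, where positions 11 to 25 held 28.4% to 31.3% A. The share was 46.9% in the 26 to 28 nt tags, 41.0% in 29 to 32 nt tags starting with another base, and 39.5% in the 1182144 T-starting tags of the same length under 2 RPM. Position 2 was A in 35.7% and G in 30.5% of members, and C in 13.7%. Position 10, where A marks piRNAs made by the ping-pong cycle, was A in 31.8% of members, close to the 29.9% of the scarcer tags and below the 43.0% of tags starting with another base. Weighted by reads, the shares of A were 48.6% at position 5 and 33.6% at position 10.

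**Figure D4:**
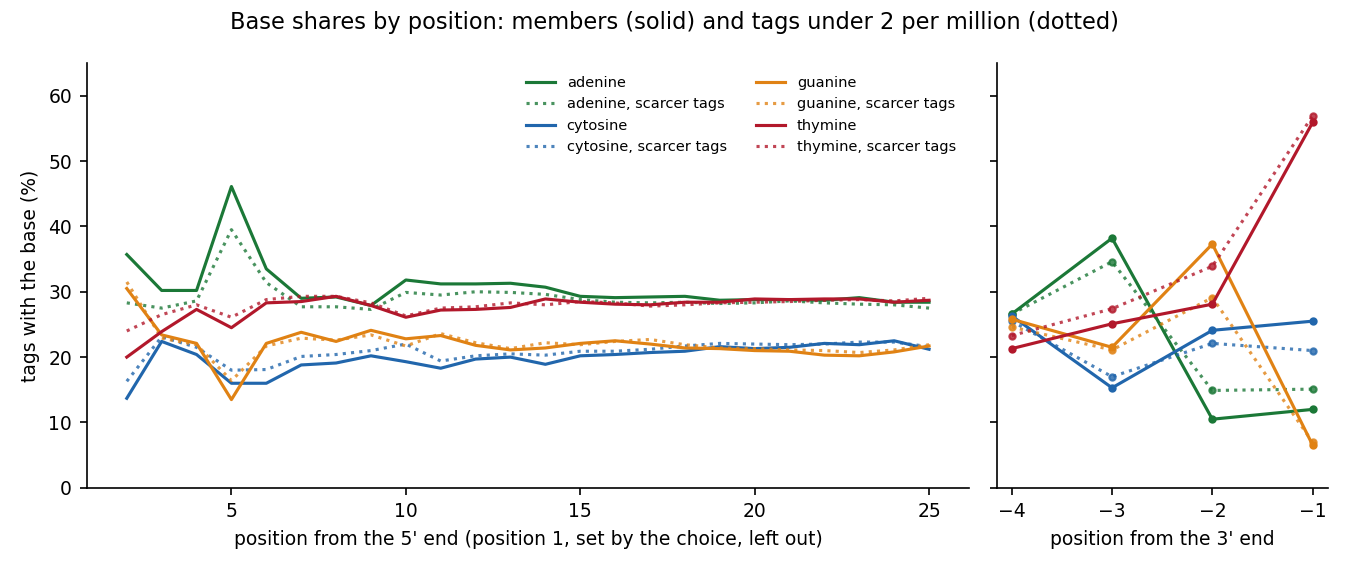
Share of tags with each base by position from the 5′ end (left; position 1 is set by the choice) and from the 3′ end (right), for the 33372 members (solid) and for 1182144 T-starting 29 to 32 nt tags under 2 RPM (dotted). Adenine peaks at position 5 and thymine at the last position in both sets.

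The 3′ end was more uneven still. The last base was T in 55.9% of members, C in 25.5%, A in 12% and G in 6.55%, and the base before it was G in 37.3% and A in 10.5%. In the 26 to 28 nt tags the last base was T in 40.4% and C in 35%. The share of T rose with length among members, from 42.0% at 29 nt to 53.3% at 30 nt, 65.4% at 31 nt and 77.1% at 32 nt. Over all T-starting 29 to 32 nt reads, chosen by no level, T was the last base in 57.4% in round spermatids, 52.7% in pachytene cells, 42.6% in sperm, 56.0% in rat testis and 43.4% in zygotene spermatocytes.

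Part of this T was not in the annotated transcript. Members were compared with GENCODE vM21 mouse transcripts (GRCm38) wherever their first 25 nt matched one. Of 2819 such members ending in T, 994 (35.3%, 95% exact Clopper-Pearson interval 33.5% to 37.1%) matched the transcript at every base but the last. The same held for 39 of 580 members ending in A (6.72%), 16 of 1406 ending in C (1.14%) and 1 of 327 ending in G (0.306%). Among members ending in T the share was 19.1% at 29 nt, 32.6% at 30 nt, 44.0% at 31 nt and 44.9% at 32 nt. In members that matched 1 gene only it was 35.5%. The transcript had A at that base for 440 of the 994, G for 302 and C for 252. In 959 of the 994 the tag without its last base was also present in round spermatids, and in 295 it had more reads than the member.

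The most abundant of these lie in the lincRNAs Gm21269 and 1700042G15Rik. Each member is followed by the transcript under it, with the last base in capitals.
Gm21269, 30 nt member: taagtaatcgagaaacgactaaaaaaacgT
Gm21269, transcript: taagtaatcgagaaacgactaaaaaaacgA
1700042G15Rik, 32 nt member: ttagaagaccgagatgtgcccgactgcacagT
1700042G15Rik, transcript: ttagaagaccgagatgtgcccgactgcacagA

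The Gm21269 member had 16620 reads in round spermatids, 826 in pachytene cells and 270 in sperm. The tag identical to the transcript had 983 reads in round spermatids, and the tag without the last base 971. The 1700042G15Rik member had 7401, 1141 and 822 reads, against 40 for the transcript form and 39 without the last base. In both the form ending in T outnumbered the others. The cause was not tested.

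**Figure D5:**
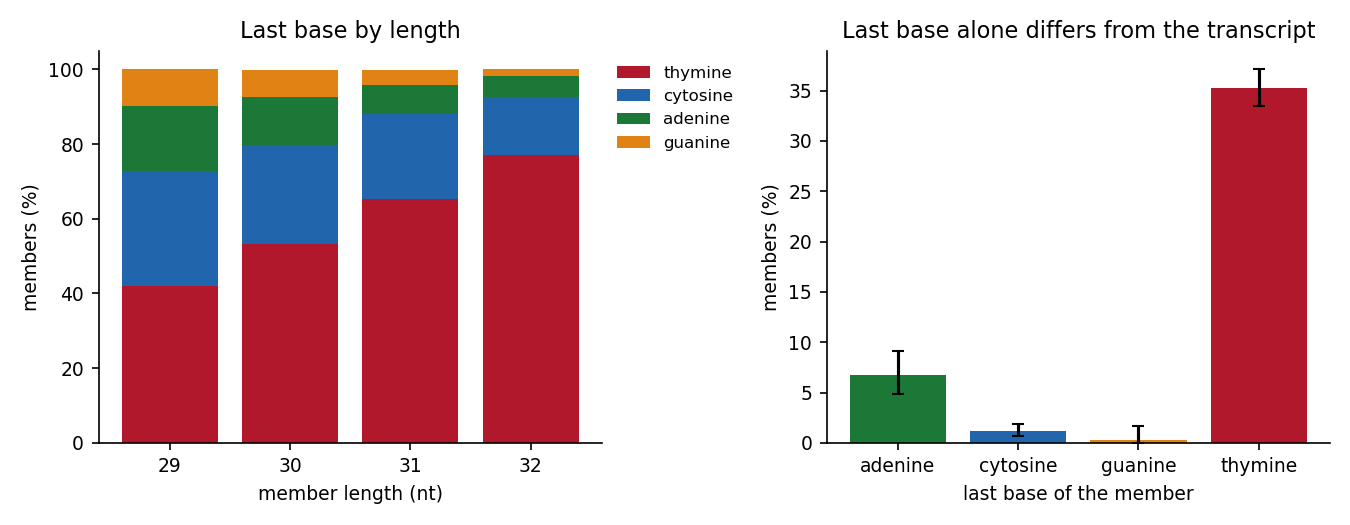
Left, last base of the members by length (% of members). Right, share of members with each last base that match a GENCODE transcript at every base but the last (bars with 95% exact intervals, counting error only). Thymine rises with length on the left and stands at 35.3% on the right.

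Most members had no annotated source. The first 25 nt of 5149 members (15.4%, with 13.8% of member reads) lay in one of 141767 annotated transcripts, on either strand, and 28223 did not. A genome sequence was not used here, so intergenic and intronic positions were not searched. On the same strand, 2998 members fell in long non-coding RNAs (29467 RPM in round spermatids), 1026 in protein-coding genes (7778) and 57 in small or mitochondrial non-coding RNAs (1124). A further 914 lay opposite an annotated exon. The 26 to 28 nt tags matched in 14.0%, with 9.71% in long non-coding RNAs and 1.42% in protein-coding genes, against 8.98% and 3.07% of members.

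The 20 genes with most member reads were mainly lincRNAs with no established function. Gm21269 (chromosome 7, 73816546 to 73838898, plus strand) had 550 members and 152733 reads in round spermatids. It stood at 6485 RPM there, 2397 in pachytene cells and 402 in sperm. Its neighbour on the minus strand, Gm10619 (chromosome 7, 73781429 to 73816503), had 174 members at 1502, 892 and 84.2 RPM. The annotated starts of the pair lie next to each other and they run in opposite directions. 1700042G15Rik (chromosome 4, 57360868 to 57364292, minus strand) had 81 members on 21 5′ ends, at 2209, 843 and 138 RPM.

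Gm49794 (chromosome 17, 27354111 to 27367492, plus strand) was closer to an equal level in both libraries: its 208 members stood at 2331 RPM in round spermatids and 1759 in pachytene cells (log2 ratio -0.41), and at 350 in sperm. Of these, 76 were higher in pachytene cells. Over all members the upper quartile of the log2 ratio was -0.71, and the count of members higher in pachytene cells is not given. Gm5878 (chromosome 6, 85111416 to 85126125, minus strand), with 167 members, and 4933440M02Rik (chromosome 7, 125284025 to 125349788, minus strand), with 164, were at the low side, with log2 ratios of -2.05 and -2.0 and 6 and 4 members higher in pachytene cells. Gm14244, 1700001L05Rik, 1700029M20Rik, 1700020N18Rik, Gm30132, 4921525O09Rik, 4930444F02Rik and D130017N08Rik, all long non-coding, ranged in log2 ratio from -2.36 (4921525O09Rik) to -0.83 (1700029M20Rik).

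Among protein-coding genes, 1700006A11Rik had 107 members at 1081 RPM in round spermatids and 243 in pachytene cells. Nemp1, which encodes an inner nuclear membrane protein, had 98 members at 1014 and 314, and Tbl2 had 73 at 774 and 156. In all, 564 of 754 5′ ends placed in coding transcripts lay in the 3′ UTR only and 98 in the coding sequence only. Members of protein-coding genes had a summed log2 ratio of -1.99 between pachytene cells and round spermatids, those of long non-coding RNAs -1.25.

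One group stood apart in kind. In all, 12 members on 7 5′ ends matched U2 snRNA copies, among them Rnu2-10 and Gm24950 on chromosome 11, whose RNA is a core part of the spliceosome. They stood at 707 RPM in round spermatids, 66.4 in pachytene cells and 22.1 in sperm, with 200 reads in cultured SSCs and 883 in rat testis. Reads cannot be assigned among these near-identical copies, and the tags meet the length and first-base conditions without being known piRNAs.

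Cultured SSCs held few members. A read was found for 1137 (3.41%), against 7.80% of the background, which has no zygotene limit. That limit on the members favours a lower share in this and the other SSC libraries. The members summed to 5504 reads or 271 RPM, 0.0271% of the library (exact interval 0.0264% to 0.0278%). Only 149 members had 10 or more reads, and these held 2967 of the reads. Of the members in protein-coding genes 307 (29.9%) had a read, against 207 (6.90%) of those in long non-coding RNAs and 564 (2.0%) of those outside annotated transcripts. In the 3′ UTR 259 of 759 were seen, in the coding sequence 40 of 122 and in the 5′ UTR 2 of 29. Shares by source were not computed for the background, so they compare members with members only. The control SSC line had 81 members with a read (0.243%, background 3.59%, sum 141 RPM), the TALEN line 53 (0.159%, background 3.08%, 143 RPM) and the CRISPR line 34 (0.102%, background 2.85%, 102 RPM). At their depths 3 reads are 2.07, 3.56 and 5.02 RPM, so most members would not be detectable there at a low level.

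The members with most SSC reads had mixed sources.
First, 29 nt: TggcTaagatcaagtgtagtatctgttcT
Number 3, 29 nt: TgagAattccacgatggggcaaactcatT

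The first, one of the U2 snRNA matches, had 82 reads in cultured SSCs, 36 in pachytene cells, 92 in round spermatids and 9 in sperm. The second, not printed, had 80, 35, 172 and 281 reads, so that it stood higher in sperm (10.8 RPM) than in round spermatids (7.30), and it had 89 reads in rat testis and 758 in rabbit testis of day 110. The third had 60, 1410, 3535 and 24 reads. Number 5, in the protein-coding gene Crkl, had 49 reads, beside 92 in round spermatids, and none in sperm. In RPM, 2 members were at least as high in cultured SSCs as in round spermatids and 178 were within 10-fold. These counts were not made for the background.

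Before the zygotene stage, members were rare as well. The zygotene limit, which the background lacks, favours lower shares of members here too. Pre-leptotene spermatocytes had a read for 1453 members (4.35%, background 8.34%) and leptotene spermatocytes for 1491 (4.47%, background 8.95%), with sums of 160 and 179 RPM. Of these, 1215 and 1209 had a single read, and 237 members were seen in both. Detection went with abundance in round spermatids: of the 10% of members with most reads there, 18.6% were seen in pre-leptotene spermatocytes, and of the 10% with fewest 1.5%. The same shares were 6.41% and 3.18% in cultured SSCs and 58.1% and 8.93% in rabbit testis of day 10. At a threshold of 5 RPM in round spermatids the pre-leptotene share was 8.08%, and counting any read with a member's first 25 nt it was 17.5%. The source of these reads was not tested.

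Rat testis shared few members. Exact copies of 1339 members (4.01%, background 6.37%) had reads there, with a sum of 105459 reads, 17488 RPM or 1.75% of the library (interval 1.74% to 1.76%). Most of it lay in few sequences: 753 members with 10 or more reads held 103671. The Spearman correlation with round spermatids was 0.057 over all members, most of which had no rat read. Among the 753, a set chosen by its rat reads, it was 0.52. Their median log2 ratio of rat testis to round spermatids was 0.12, with 414 higher and 339 lower in rat. Within 2 mismatches over the first 25 nt, 4658 of 20474 5′ ends (22.8%) had a rat tag, against 1254 (6.12%) without a mismatch.

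The 5 members with most rat reads are shown because they are identical over their whole length in the rat and mouse libraries.
First: TattGtagataaaagggacagcataccagA
Number 2 in rat: TcccAtacgtctttgcgagttttctgatC
Number 3 in rat: TcacAacaactgtgtggaggtataggtgT
Number 4 in rat: TtttAacacatgggcctttgcaggatacT
Number 5 in rat: TcaaTaaatatttgtagaatgcatgaatgA

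The first had 5955 reads in rat testis (988 RPM) and 4711 in round spermatids (200 RPM), with 633 in pachytene cells and 244 in sperm. The second had 5173 in rat testis (858 RPM), 3291 in round spermatids (140), 3424 in pachytene cells (150) and 603 in sperm. Numbers 3 to 5 had 3255, 2859 and 2062 rat reads. In rabbit testis of day 10 these 5 had 2, 9, 0, 8 and 4 reads. By the same length, first base and level conditions without a zygotene library, rat testis had 38356 tags of its own, of which 688 (1.79%) were members and 1574 (4.10%) were seen in round spermatids at any level. The 753 members with 10 or more rat reads had A at position 5 in 41.8%, A at position 10 in 37.3% and T as the last base in 54.6%, beside 46.1%, 31.8% and 55.9% of all members.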

How the data were processed

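The authors deposited, for each of the 20 libraries, a list of distinct read sequences with a read count each, not normalised. Bowtie and mm10 are listed in the submitters' processing notes, without their role. Library preparation followed an Illumina small RNA protocol, per the labels' protocols. Trimming and filters are not given in the sources used here. Counts were divided by the sum of the library and multiplied by 1000000 (Python 3.11.15, pandas 2.3.3, scipy 1.17.1). Depth ran from 597732 to 25908109 reads. Groups came from the sample titles, 1 library each, so no test was made. A ratio of 4-fold or more was called, with 0 reads set to 3, and 1 read counted as detection. Intervals are 95% exact (Clopper-Pearson or conditional binomial). A shared 5′ end means equal first 25 nt. Tags were matched exactly to GENCODE vM21 transcripts (GRCm38); with no genome sequence used, loci and flanking bases in the genome were not analysed here. Marker miRNAs came from RefSeq (GRCm38.p6), as reads of 18 to 26 nt that begin with the first 18 nt of the mature form. Tags named are those with most reads in round spermatids (10), in mature sperm, cultured SSCs and rat testis (5 each), the 3 highest and 3 lowest pachytene ratios, those with most shorter reads (5), those at the thresholds, and the 20 genes with most same-strand member reads; some are given by count only, and 1 is not reported here. The scripts were tested on simulated tags. The members and lists were chosen with earlier results of these data known.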

Additional observations from a re-analysis of the deposited data

Results flagged for a closer look

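The rabbit and pig testis libraries also held exact copies of members. The 8 rabbit testis libraries had 1396 (day 10), 1657 (day 30), 1305 (day 60), 2350 (day 70), 1449 (day 80), 1316 (day 90), 1364 (day 110) and 1203 (day 180) RPM of member reads. They are given because these sums enter no comparison in the text above, where rabbit libraries appear only by detection or by single tags. A sum over 33372 tags passes the limit that a count of 0 allows with a few reads, so passing it says nothing of the level. From 5916 to 9541 members (17.7% to 28.6%) had a read in each library, against 19.5% to 30.2% of the background. The median detected member had 1 read in all 8. Pooled over the 8, 22850 members (68.5%) were seen in at least 1, a share not computed for the background. The day 10 and day 180 libraries were alike in detection (20.1% and 17.7%), although T-starting 29 to 32 nt reads stood at 36663 and 397209 RPM in them. Detection followed the abundance in mouse round spermatids, at 52.1% of the 10% most abundant and 6.95% of the 10% least abundant members in the day 180 library. Adult pig testis had 147 RPM, with a read for 3.8% of members and 6.51% of the background. The cause was not tested.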

How the results depend on the processing

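Of 65 alternative values, 16 stayed within the counting interval or within 1.5 times for a count, and 49 moved. The 12 log2 ratios among them stayed below 0, a direction that the choice of members on round spermatids favours. The other 53 are counts and percentages, which have no sign. With at least 5 RPM in round spermatids there were 13801 members, the log2 ratio to round spermatids was -1.37 in pachytene spermatocytes and -3.73 in sperm, the shares detected were 4.03% (cultured SSCs), 8.08% (pre-leptotene), 7.96% (leptotene) and 5.12% (rat), A stood at 32.8% (position 10) and 47.9% (position 5), 99.4% of members had a shorter tag, and 36.9% of the pachytene forms of 26 to 32 nt were 26 to 28 nt (38.4% with all members). With 0 zygotene reads these were -1.20 and -3.67, then 3.02%, 3.61% and 3.69% for SSCs, pre-leptotene and leptotene, and 40.3% for the pachytene forms. With thresholds scaled to reads of 25 to 32 nt they were -1.21 and -3.68, then 3.04%, 3.58%, 3.74% and 3.75% detected, 98.4% and 39.4%. With 1 member per 5′ end, 20474 in number, they were -1.40 and -3.71, then 4.15%, 5.03%, 5.24% and 3.63%, A at position 5 in 44.9%, last T in 54.9%, then 97.9% and 44.7%. Reads sharing the first 25 nt gave -0.60 and -2.94, then 10.9%, 17.5%, 18.2% and 8.14%, and up to 2 mismatches gave 25.6% in rat. Shorter tags of 26 to 28 nt only were found for 91.3%, and weighting by reads gave 33.6% and 48.6% A. Chosen after seeing the data, levels scaled to reads of 25 to 32 nt gave -1.14 and -2.69, and whole-tag transcript matches 11.3% in place of 15.4%. Setting 1 and 2 reads to 3 changed no count of members 4-fold lower, an outcome fixed in advance. Members had at least 2.04 RPM in round spermatids, and 3 reads are 0.132 RPM in pachytene spermatocytes and 0.116 in sperm. These counts are among the 16 that stayed and are no check. The cause of the shifts in the other values was not tested. The alternatives that need a genome sequence (hit number, joining distance, flanking bases) were not run. No paired analysis was possible because each group holds 1 library. Depth limits the knock-out SSC libraries most.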
